A study of Mus musculus with 12 samples.

Results

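The 40 genes described here were taken by name from a list of general myeloid leukocyte genes. Each of the 40 symbols matched 1 row of a count table with 55573 genes, and all 40 were among the 19174 genes with enough reads to be tested. RNA was sequenced from mouse embryonic fibroblasts (MEFs), cells grown from the body of E13.5 C57BL/6 embryos that carry the i4F cassette, in which doxycycline switches on Oct4, Sox2, Klf4 and c-Myc (OSKM). Cells from 3 embryos, called clones 1, 2 and 3, each gave 1 library of every group, so that n = 3 in each group. MEF cells received neither agent, MEF + B12 cells received 2 µM vitamin B12, OSKM cells received 1 µg/ml doxycycline, and OSKM + B12 cells received both. The doxycycline dose is that of the sample labels, and the study's methods state it in mg rather than µg per ml. All were collected after 72 h in a medium used for deriving induced pluripotent stem cells. All libraries carry the cassette, and since no uninduced culture received doxycycline, effects of the drug and of the 4 factors cannot be told apart. The design asks what B12 does to each gene in uninduced and in induced cells, and what induction does with and without B12.

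Myeloid leukocytes (monocytes, macrophages, granulocytes and their relatives) arise from blood progenitors under the control of transcription factors such as PU.1, the product of Spi1. They carry CD45, the phosphatase encoded by Ptprc, on their surface, adhere through integrins that pair with CD18, and crawl by remodelling actin under Rac GTPases. They kill engulfed microbes with lysozyme and with the superoxide that the NADPH oxidase makes. Fibroblasts are not known for making most of these proteins, whereas cultures grown from whole embryos can include some macrophages. The genes were ordered by role into 11 surface proteins and receptors, 4 lysosomal and pore-forming effectors, 3 genes of integrins and their activator, 7 kinases, phosphatase and signalling adaptors, 7 actin and Rac regulators, 3 NADPH oxidase subunits and 5 transcription factors.

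For 5 of the 40 genes, the DNA before their starts is shown. RefSeq windows (GRCm38.p6) that run from 250 bases before a start to 50 after it were held for 32 of the 40 genes, as 39 windows. Ptprc is shown as the common leukocyte gene, Lyz2 as the most abundant member, Vav1 as a signalling gene, Ms4a6c as the member with the largest B12 change and Cybb as a member with almost none. The windows lie at chr1:138175256-138175555 on the minus strand (Ptprc, the first of its windows), chr10:117282223-117282522 on the minus strand (Lyz2), chr17:57278850-57279149 on the plus strand (Vav1), chr19:11469118-11469417 on the plus strand (Ms4a6c) and chrX:9469275-9469574 on the minus strand (Cybb). Capitals mark GAGGAA, the core letters of PU.1 sites, and AGGAAGT, which many factors of the ETS family (PU.1 among them) can bind, on either strand.
Ptprc: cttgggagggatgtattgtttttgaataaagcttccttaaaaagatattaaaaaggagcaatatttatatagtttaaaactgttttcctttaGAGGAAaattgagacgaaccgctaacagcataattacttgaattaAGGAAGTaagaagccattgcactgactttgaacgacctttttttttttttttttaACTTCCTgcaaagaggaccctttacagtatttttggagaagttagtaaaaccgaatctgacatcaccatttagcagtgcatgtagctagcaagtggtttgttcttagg
Lyz2: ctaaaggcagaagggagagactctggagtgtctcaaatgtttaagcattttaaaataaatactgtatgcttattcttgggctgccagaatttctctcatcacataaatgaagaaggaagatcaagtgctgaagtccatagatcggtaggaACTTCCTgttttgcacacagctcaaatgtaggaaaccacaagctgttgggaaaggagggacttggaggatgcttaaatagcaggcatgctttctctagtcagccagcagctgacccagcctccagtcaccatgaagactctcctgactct
Vav1: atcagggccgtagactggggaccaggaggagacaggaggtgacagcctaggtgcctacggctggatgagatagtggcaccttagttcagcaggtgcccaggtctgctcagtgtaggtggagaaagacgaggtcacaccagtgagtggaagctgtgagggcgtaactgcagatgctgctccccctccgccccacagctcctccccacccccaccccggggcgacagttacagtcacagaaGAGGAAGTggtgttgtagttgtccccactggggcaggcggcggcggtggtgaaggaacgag
Ms4a6c: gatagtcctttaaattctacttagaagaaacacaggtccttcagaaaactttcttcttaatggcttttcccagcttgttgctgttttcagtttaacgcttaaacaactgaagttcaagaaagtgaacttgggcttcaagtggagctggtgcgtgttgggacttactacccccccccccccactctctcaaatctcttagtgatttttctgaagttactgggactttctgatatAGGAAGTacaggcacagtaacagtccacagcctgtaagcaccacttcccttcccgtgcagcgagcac
Cybb: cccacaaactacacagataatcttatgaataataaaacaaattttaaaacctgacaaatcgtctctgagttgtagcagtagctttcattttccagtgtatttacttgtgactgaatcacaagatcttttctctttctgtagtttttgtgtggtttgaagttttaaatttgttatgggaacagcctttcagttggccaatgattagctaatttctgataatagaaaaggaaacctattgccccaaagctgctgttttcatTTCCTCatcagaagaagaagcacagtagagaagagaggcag

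GAGGAA stood in 18 of the 39 member windows (46.2%) and in 28.3% of the 32851 windows of all genes. AGGAAGT, which overlaps it by 5 letters where both occur together, stood in 10 member windows (25.6%) against 9.35% of all. Longer forms were rarer: GAGGAAG was found in 20.5% of member windows against 13.6% of all, and GAGGAAGT in 5.13% against 3.2%, in Vav1 and Cd53. TGTGGTT, the core letters of RUNX sites, was found in 12.8% against 5.27%. For words linked to interferon regulatory factors the shares were 5.13% against 2.72% (the ETS-IRF composite element) and 7.69% against 2.75% (the repeated core of the interferon-stimulated response element). By contrast, TATAAA was found in 10.3% of member windows against 13.6% of all, and GGGCGG in 30.8% against 35.7%. These 9 words were searched on both strands, windows of 1 gene can overlap, and a match describes letters rather than binding. Whether any word goes with the B12 change of a gene was not tested. Of the windows shown, Cybb held GAGGAA together with the RUNX word and the ETS-IRF composite element, but not AGGAAGT.

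Library totals ranged from 56971244 to 79236795 counts, and every member but Fgr, Aif1 and Cd86 had at least 100 counts in each library. Levels are given as CPM, the counts of a gene scaled to 1000000 counts of the adjusted library total. The summed level of the 40 genes was 1817 to 3049 CPM in MEF, 2680 to 3896 CPM in MEF + B12, 1793 to 2653 CPM in OSKM and 2691 to 2998 CPM in OSKM + B12. They took between 0.176% and 0.396% of all counts. The culture labelled as fibroblasts bore that label out, since 8 fibroblast markers summed to 59530 CPM or more in every library and Col1a1, a chain of type I collagen, alone reached 25440 CPM or more. Most macrophage markers were also present: Csf1r, the receptor for colony-stimulating factor 1, ranged from 71.9 to 219 CPM, Mrc1, the mannose receptor, from 121 to 487 CPM, and C1qa, a complement subunit, from 61.2 to 152 CPM. Tyrobp (29.1 to 58.0 CPM), Mertk (18.8 to 26.0 CPM) and Fcgr1 (9.11 to 32.8 CPM) were lower. Timd4 stayed at or under 1.29 CPM and Cd163 at or under 0.177 CPM. In bulk RNA, a change in the number of leukocytes in the dish and a change in RNA per cell cannot be told apart.

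Per length of exon, the members spanned more than 3 orders of magnitude. Lyz2, the lysozyme of macrophages, stood first with a mean of 898 CPM per kb over the 12 libraries, and Cd68, a lysosomal membrane glycoprotein, was second with 92.9 CPM per kb. Mpeg1, a pore-forming protein, had 40.1 CPM per kb and Adgre1, which encodes the macrophage antigen F4/80, 32.6 CPM per kb. Spi1 had 13.4 CPM per kb, Cybb 5.21 CPM per kb and Ptprc 1.62 CPM per kb. Fgr, a Src-family kinase, was last with 0.203 CPM per kb. The effectors of the lysosome thus stood above the signalling and regulatory genes in level.

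**Figure D1:**
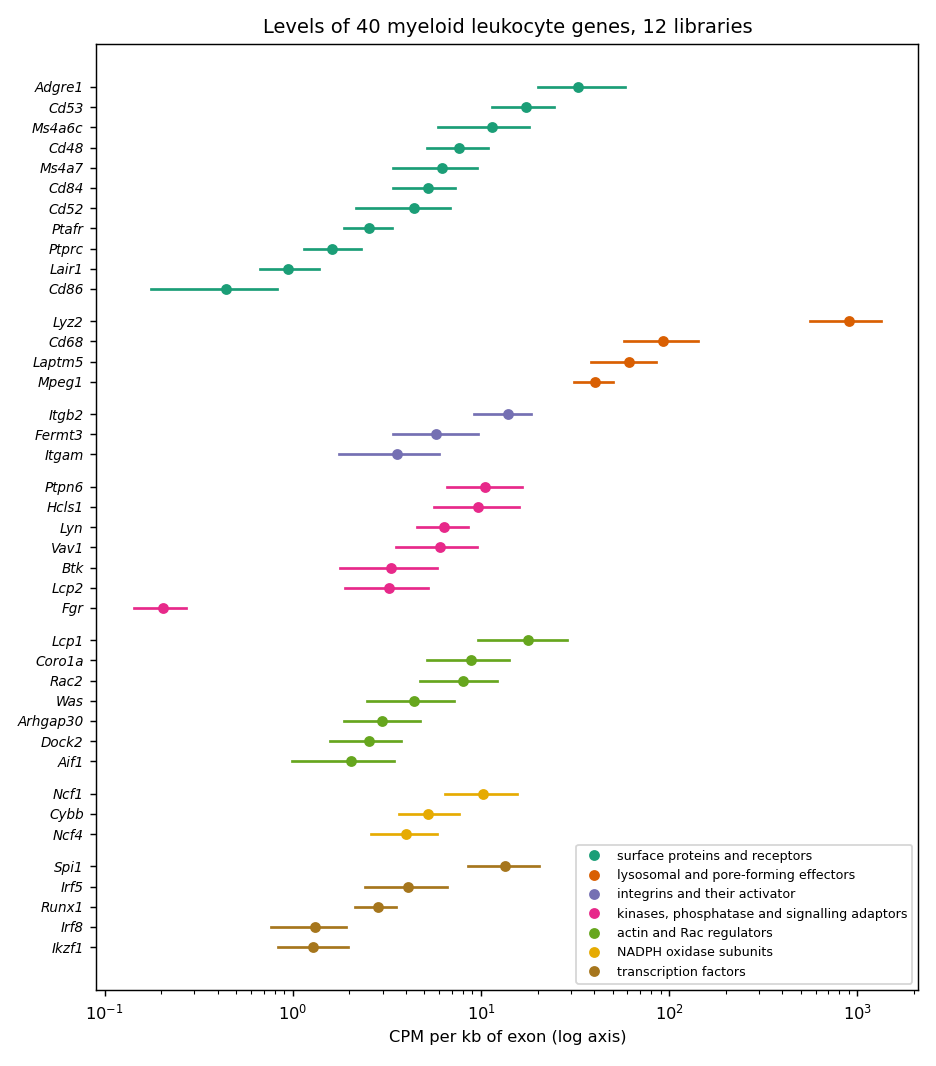
Levels of the 40 genes in CPM per kb of exon on a log axis, grouped by role. Points are means over 12 libraries and lines run from the lowest to the highest library. Lyz2 (898) lies far to the right and Fgr (0.203) far to the left.

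B12 raised most of these genes to a similar extent. Averaged over uninduced and induced cells, 35 of the 40 were higher with B12 and 0 were lower, where 3.46% of all tested genes were called higher (edgeR quasi-likelihood F test with the clone as a block, Benjamini-Hochberg adjusted p under 0.05 over all 19174 genes). The median log2 fold change over the 40 genes was 0.58, or 1.5-fold, with an interquartile range of 0.18 and an SD of 0.22, while the median over all tested genes was -0.01. The 5 genes that did not pass were Cd52, Fgr, Aif1, Cybb and Runx1. The count rested on the pairing of libraries by embryo and on clone 2. It was 10 without the replicate block, 1 (Ms4a6c) without clone 2, 25 without clone 3 and 34 without clone 1, while the median stayed between 0.52 and 0.69. Calls over all tested genes, in either direction, fell as well. They were 736 in the main fit, 90 without the block, 34 without clone 2, 317 without clone 3 and 525 without clone 1. Other leukocyte genes moved too. Of 40 further pan-leukocyte and myeloid genes, 39 were tested, 26 were higher and 0 lower, and the median log2 fold change was 0.52. Of 8 macrophage markers, 7 were tested, 5 were higher and 0 lower, with a median of 0.71 (Mrc1 0.86 ± 0.08 SE, Csf1r 0.71 ± 0.08 SE). Mertk (0.03 ± 0.05 SE) and the scarce Timd4 (1.38 ± 0.41 SE) did not pass. Summed macrophage markers were 324 to 626 CPM in MEF, 567 to 972 CPM in MEF + B12, 329 to 602 CPM in OSKM and 560 to 807 CPM in OSKM + B12, and Cd163 was at 0.177 CPM or less in every library. The part of macrophage content in the changes of the 40 genes was not tested.

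**Figure D2:**
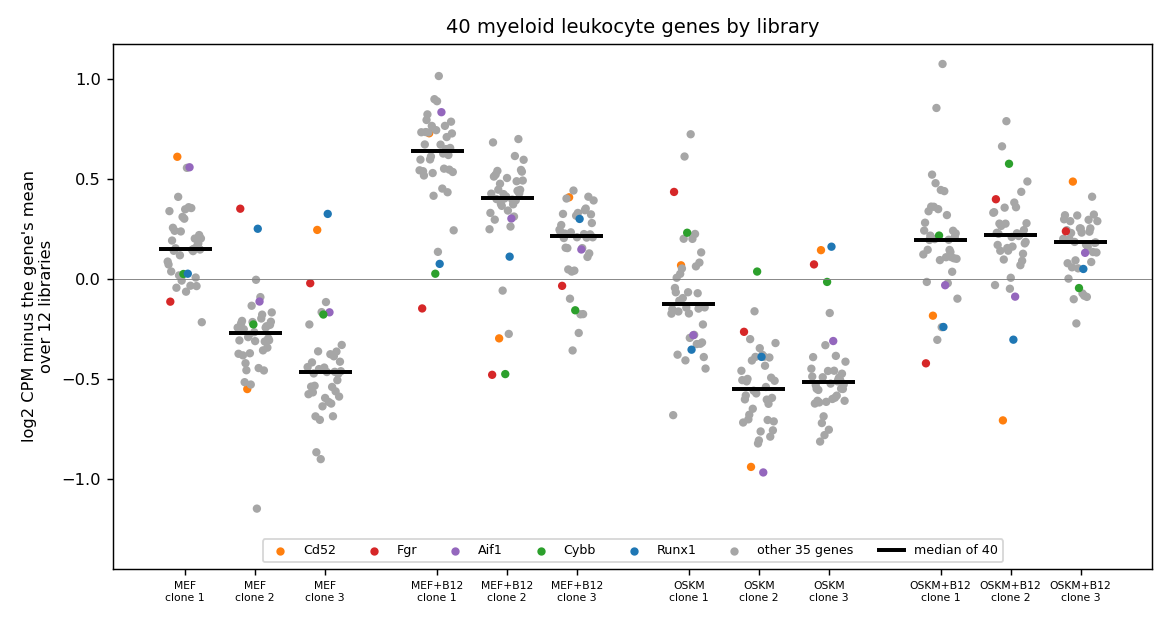
Level of each of the 40 genes in each library, as log2 CPM minus the mean of that gene over 12 libraries. Points are genes, black bars the median of 40, and the 5 genes that did not pass in the B12 average are coloured. The bars of the B12 libraries lie above 0, and without B12 only that of clone 1 in MEF does.

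Among the surface proteins and receptors, 10 of 11 rose with B12 and the median log2 fold change was 0.54. Ptprc, in the order of clones 1, 2 and 3 used throughout, had 30.7, 24.4 and 21.3 CPM in MEF and 42.1, 34.3 and 34.3 CPM in MEF + B12. In induced cells it had 25.6, 21.01 and 21.2 CPM without B12 and 31.4, 36.3 and 33.2 CPM with it. The groups with and without B12 did not overlap in either state, and the log2 fold change was 0.56 ± 0.07 (SE, edgeR adjusted p = 0.00109). Ms4a6c, a membrane protein of the MS4A family, had 21.5, 16.2 and 12.2 CPM in MEF and 36.8, 30.2 and 22.9 CPM in MEF + B12. Its OSKM levels were 22.6, 18.0 and 12.6 CPM, against 31.8, 35.1 and 23.1 CPM in OSKM + B12. Again the groups were apart in both states, and the log2 fold change of 0.82 ± 0.06 (SE) was the highest of the 40 in the fit over 12 libraries (adjusted p = 0.000112). Ms4a6b, a paralog with which Ms4a6c shares 13.9% of its 31-base words, changed by 0.91 ± 0.07 (SE).

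Adgre1 showed a rise in each clone from different starting levels. It had 125, 86.7 and 64.7 CPM in MEF and 188, 133 and 104 CPM in MEF + B12, which overlap because clone 1 was high in both. In OSKM it had 91.1, 67.7 and 65.7 CPM and in OSKM + B12 128, 111 and 104 CPM, with no overlap. The log2 fold change was 0.63 ± 0.07 (SE, adjusted p = 0.000778). Cd52, a small glycoprotein of the leukocyte surface, was different. Its MEF levels were 7.5, 3.35 and 5.82 CPM and its MEF + B12 levels 8.14, 3.996 and 6.52 CPM. Induced cells had 5.15, 2.56 and 5.43 CPM without and 4.32, 3.01 and 6.88 CPM with B12. The groups overlapped in both states, clone 2 was lowest in each of the 4 groups, and the log2 fold change was 0.15 ± 0.12 (SE, adjusted p = 0.608). The other 7 members of the group, Lair1 and Ptafr among them, changed by 0.48 to 0.76.

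All 4 lysosomal and pore-forming effectors rose, with a median log2 fold change of 0.50. Lyz2 had 1456, 993 and 739 CPM in MEF and 1759, 1475 and 1008 CPM in MEF + B12. In OSKM it had 1331, 843 and 754 CPM, and in OSKM + B12 1421, 1334 and 1070 CPM. The groups overlapped in both states, since clone 1 without B12 stood above clone 3 with it, and the log2 fold change was 0.43 ± 0.08 (SE, adjusted p = 0.0085). Lyz2 shares 32.8% of its 31-base words with Lyz1, whose change of 0.35 ± 0.13 (SE) did not pass (adjusted p = 0.213). Cd68 had 115, 96.1 and 77.1 CPM in MEF and 163, 180 and 140 CPM in MEF + B12. Its OSKM levels of 109, 73.8 and 72.8 CPM lay just under the 111, 132 and 133 CPM of OSKM + B12. No group overlapped its partner, although clone 1 rose little in induced cells, and the log2 fold change was 0.67 ± 0.10 (SE, adjusted p = 0.00429). Mpeg1 had 164, 171 and 158 CPM in MEF and 188, 217 and 216 CPM in MEF + B12. With induction it had 140, 135 and 152 CPM without and 145, 198 and 201 CPM with B12, and these overlapped through clone 1. Its log2 fold change, 0.33 ± 0.06 (SE, adjusted p = 0.0125), was the smallest of the 35 genes that passed. Laptm5, a lysosomal membrane protein, changed by 0.58 ± 0.08 (SE).

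The integrin genes rose as well. Fermt3, which encodes kindlin-3, an activator of integrins, had 35.1, 23.6 and 19.6 CPM in MEF and 55.9, 46.0 and 35.2 CPM in MEF + B12. In OSKM it had 29.3, 19.7 and 20.6 CPM, and in OSKM + B12 40.6, 38.0 and 37.0 CPM. All 3 libraries with B12 stood above all 3 without it in each state (log2 fold change 0.79 ± 0.08 SE, adjusted p = 0.00042). Itgam, the CD11b chain that pairs with CD18, had 19.5, 11.5 and 8.86 CPM in MEF and 23.9, 15.9 and 12.9 CPM in MEF + B12. Its OSKM levels were 25.3, 14.8 and 9.63 CPM and its OSKM + B12 levels 29.9, 28.6 and 14.2 CPM. Here the groups overlapped, with clone 1 high in all of them, and the log2 fold change was 0.51 ± 0.10 (SE, adjusted p = 0.0123). Exons of Itgam overlap those of Gm49368 on the same strand over 68.7% of their length, so reads there could not be assigned to 1 gene, and Gm49368 stayed at or under 0.089 CPM. Itgb2, which encodes CD18 itself, changed by 0.54 ± 0.08 (SE).

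Of the 7 kinases, phosphatase and signalling adaptors, 6 rose and the median log2 fold change was 0.67. Btk, a Tec-family kinase, had 12.6, 7.95 and 6.53 CPM in MEF and 18.3, 14 and 11.4 CPM in MEF + B12. OSKM cells had 8.75, 5.64 and 5.85 CPM, and OSKM + B12 cells 13.4, 9.91 and 11.8 CPM. Only the uninduced groups overlapped, and the log2 fold change was 0.76 ± 0.09 (SE, adjusted p = 0.000658). Hcls1, a cortactin relative, changed by 0.74 ± 0.09 (SE), Vav1, which activates Rac GTPases, by 0.71 ± 0.07 (SE), and Lcp2, the adaptor SLP-76, by 0.67 ± 0.07 (SE). For Ptpn6, the phosphatase SHP-1, the change was 0.62 ± 0.09 (SE), and for Lyn, a Src-family kinase, 0.55 ± 0.05 (SE). Fgr, of the same kinase family as Lyn, stood apart. It had 0.710, 0.980 and 0.757 CPM in MEF and 0.694, 0.551 and 0.750 CPM in MEF + B12. Induced cells had 1.04, 0.640 and 0.808 CPM without and 0.573, 1.01 and 0.906 CPM with B12. The pairs went both ways at 32 to 70 counts a library, and the log2 fold change of -0.15 ± 0.19 (SE, adjusted p = 0.755) has the widest error of the 40.

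Actin and Rac regulators behaved alike, with 6 of 7 higher and a median log2 fold change of 0.66. Was, which encodes the Wiskott-Aldrich protein that drives actin branching, had 11.6, 8.03 and 6.61 CPM in MEF and 17.1, 14.5 and 12.4 CPM in MEF + B12. It had 8.49, 5.88 and 6.78 CPM in OSKM, and 11.5, 11.2 and 11.3 CPM in OSKM + B12. The groups were apart in both states (log2 fold change 0.73 ± 0.09 SE, adjusted p = 0.000944). Arhgap30, Rac2, Coro1a, Dock2 and Lcp1, which belong to or regulate the small GTPases of this pathway or bind actin, changed by 0.59 to 0.69. Aif1, the calcium-binding protein IBA1, had 4.38, 2.75 and 2.65 CPM in MEF and 5.30, 3.67 and 3.29 CPM in MEF + B12. In OSKM it had 2.45, 1.52 and 2.40 CPM, and in OSKM + B12 2.91, 2.80 and 3.26 CPM. It was above 0 in all 6 pairs and its induced groups did not overlap, yet at 88 to 367 counts its log2 fold change of 0.42 ± 0.13 (SE) did not pass (adjusted p = 0.127).

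The NADPH oxidase subunits split. The cytosolic subunits Ncf4 and Ncf1 rose and Cybb, the catalytic membrane subunit, did not pass. Ncf4 had 8.21, 6.02 and 5.24 CPM in MEF and 11.8, 9.82 and 9.19 CPM in MEF + B12. Its levels were 7.03, 5.50 and 5.57 CPM in OSKM and 9.23, 9.84 and 9.60 CPM in OSKM + B12. Both states showed no overlap (log2 fold change 0.67 ± 0.08 SE, adjusted p = 0.000859), and Ncf1 changed by 0.49 ± 0.07 (SE). Cybb had 30.3, 25.4 and 26.3 CPM in MEF and 30.3, 21.4 and 26.7 CPM in MEF + B12. With induction it had 34.95, 30.55 and 29.5 CPM without and 34.6, 44.4 and 28.9 CPM with B12. The groups overlapped throughout, and clone 2 was lower with B12 in uninduced cells and higher with it in induced cells. The log2 fold change was 0.06 ± 0.10 (SE, adjusted p = 0.818). Among the further leukocyte genes, Cyba, the membrane partner of the Cybb product, changed by 0.19 ± 0.04 (SE, adjusted p = 0.0218).

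Of the 5 transcription factors 4 rose, with a median log2 fold change of 0.58. Spi1 had 39.4, 28.4 and 25.1 CPM in MEF and 54.9, 47.5 and 40.7 CPM in MEF + B12. In OSKM it had 28.0, 23.1 and 25.1 CPM, and in OSKM + B12 37.4, 41.3 and 43.6 CPM. The groups did not overlap in either state (log2 fold change 0.66 ± 0.09 SE, adjusted p = 0.00171). Irf5, a factor of interferon and Toll-like receptor signalling, had 12.5, 8.84 and 7.03 CPM in MEF and 19.2, 17.3 and 14.4 CPM in MEF + B12. Its OSKM levels were 9.04, 7.45 and 7.56 CPM, against 12.97, 13.1 and 13.9 CPM in OSKM + B12. These too were apart, with a log2 fold change of 0.80 ± 0.09 (SE, adjusted p = 0.000742). Ikzf1 and Irf8, which direct lymphoid and myeloid development, changed by 0.58 ± 0.07 (SE) and 0.44 ± 0.08 (SE). Runx1, needed for blood stem cells to form, had 34.3, 40.1 and 42.2 CPM in MEF and 35.5, 36.4 and 41.5 CPM in MEF + B12. It had 26.4, 25.7 and 37.7 CPM in OSKM and 28.5, 27.3 and 34.9 CPM in OSKM + B12. The groups overlapped, 3 of 6 pairs lay above 0, and the log2 fold change was -0.01 ± 0.06 (SE, adjusted p = 0.96).

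**Figure D3:**
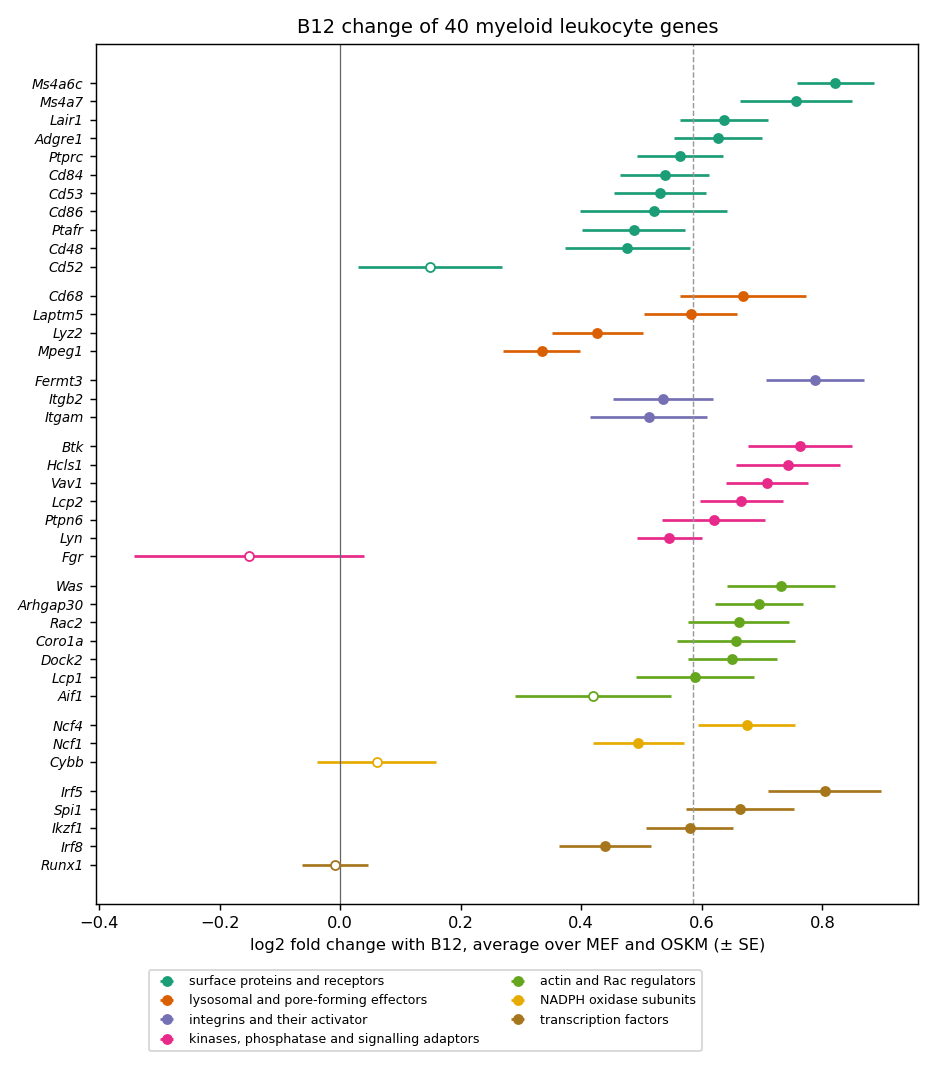
Log2 fold change with B12, averaged over MEF and OSKM, for each of the 40 genes by role. Bars are SE, filled points passed adjusted p under 0.05 and open points did not, and the dashed line is the median of 40. Most points lie near the dashed line at 0.58, and Fgr, Runx1, Cybb and Cd52 lie between -0.15 and 0.15.

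The spread from gene to gene was set against the spread from pair to pair. A pair is the library with B12 against the one without it in the same clone and state, which gives 6 differences in log2 CPM for each gene. The median of the 40 genes was 0.45, 0.71 and 0.68 in MEF clones 1, 2 and 3, and 0.29, 0.79 and 0.68 in OSKM clones 1, 2 and 3. Clone 1 thus had the smallest change in both states. The medians over all tested genes lay between -0.01 and 0.00 in the same pairs. Over the 40 genes, the mean difference ranged from -0.14 to 0.82 with an SD of 0.22. Over the 35 that passed in the B12 average the SD was 0.12. That narrowing follows from the selection, which left out the genes with the lowest changes (Fgr, Runx1, Cybb and Cd52). Within a gene the SD over the 6 pairs had a median of 0.20, which fell to 0.093 once the median of each pair was subtracted. Pairs therefore differed mainly by an amount the genes shared. All 6 differences lay above 0 in 35 genes, namely Aif1 and 34 of the 35 that passed. How many of all tested genes do so was not counted. After subtraction, 10 genes lay above the median of the pair in all 6 pairs (Lair1, Ms4a7, Ms4a6c, Fermt3, Btk, Vav1, Hcls1, Was, Spi1 and Irf5). Another 8 lay below it in all 6 (Cd52, Ptafr, Lyz2, Mpeg1, Fgr, Ncf1, Cybb and Runx1). Across genes, which are not independent replicates, the B12 change had a Spearman correlation of 0.0053 and a Pearson correlation of 0.19 with the log2 mean CPM over 40 genes in the same libraries.

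**Figure D4:**
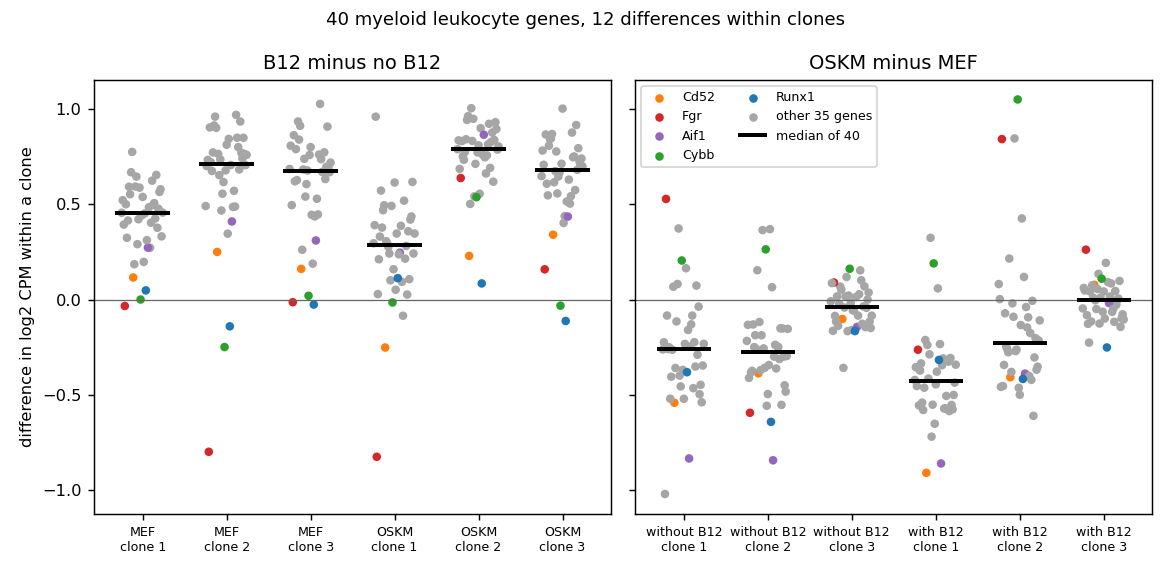
Differences in log2 CPM within a clone for the 40 genes, for B12 (left) and for induction (right). Points are genes, black bars the median of 40, and the 5 genes that did not pass in the B12 average are coloured. On the left the bars lie between 0.29 and 0.79, and on the right between -0.43 and 0.00.

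The B12 change was also compared between uninduced and induced cells. In MEF, 25 of the 40 genes were higher and 0 lower (1.37% of all tested genes were higher), and the middle log2 fold change was 0.61. In OSKM, 22 were higher and 0 lower (1.05% of all tested genes were higher), with a median of 0.59. Both comparisons called 21 of these genes and 26 were called in at least 1. The counts fell to 0 in both states without the replicate block and without clone 2, to 2 in MEF and 1 in OSKM without clone 3, and in OSKM to 11 when the 6 induced libraries were fitted alone. The difference between states was tested directly, and 0 of the 40 genes passed, as did 0% of all tested genes. At an unadjusted p under 0.05 the count was again 0 of 40, and DESeq2 also called 0. The median difference was 0.00 with a median SE of 0.16, and 20 of the 40 genes had the higher change in OSKM. Fgr had the largest difference, 0.27 ± 0.38 (SE), followed by Cybb with 0.25 ± 0.20 (SE) and Coro1a with 0.24 ± 0.20 (SE). For Cybb the change was -0.06 ± 0.14 (SE) in MEF and 0.18 ± 0.14 (SE) in OSKM. Ms4a6c changed by 0.86 ± 0.09 (SE) in MEF and 0.78 ± 0.09 (SE) in OSKM. Across the 40 genes the changes in the 2 states, which come from different libraries of the same embryos, had a Pearson correlation of 0.91 and a Spearman correlation of 0.81. Over the 35 genes called in the B12 average these were 0.742 and 0.736.

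**Figure D5:**
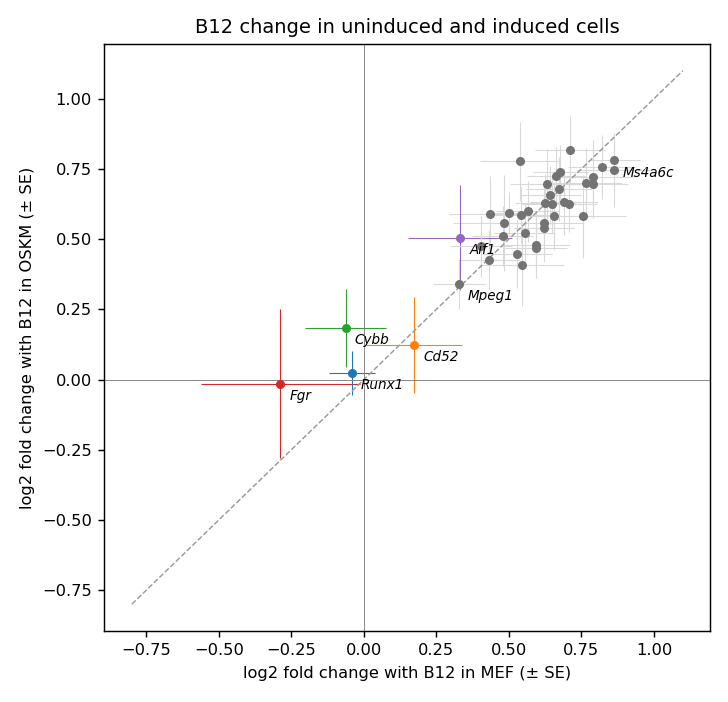
Log2 fold change with B12 in MEF (horizontal) and in OSKM (vertical) for the 40 genes, with SE bars and a dashed line of equal change. Most genes form a group between 0.33 and 0.86 in MEF, and Runx1, Cybb and Cd52 lie between -0.06 and 0.18 in both, while Fgr is at -0.29 in MEF and -0.01 in OSKM.

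The median difference with induction was smaller in size than that with B12, and none of the 40 genes passed. Without B12, 0 of the 40 genes were called (0.073% of all tested genes were, in either direction), although 34 lay below 0 and the median log2 fold change was -0.21, or 0.865-fold, beside -0.01 over all tested genes. At an unadjusted p under 0.05 there were 16, all lower, or 40% against 18.99% of all tested genes, and the smallest adjusted p was 0.15. With B12 present, 0 were called (0.104% of all tested genes), 34 lay below 0 and the median was -0.22, beside 0.00 over all tested genes. At an unadjusted p under 0.05 there were 18 (2 higher and 16 lower, 45% against 14.88% of all tested genes), and the smallest adjusted p was 0.176. The count rose without clone 3 to 6 genes without B12 and 7 with it, all lower. DESeq2 called 3 in each: Coro1a, Runx1 and Vav1 lower without B12, and Cybb and Itgam higher and Runx1 lower with B12. The shares of all tested genes above are those of the main edgeR fit and cannot be set beside the counts of these other settings.

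Among the 40 genes, none had a smaller adjusted p for induction than Runx1. Its log2 fold change with induction was -0.39 ± 0.08 (SE, adjusted p = 0.15) without B12 and -0.33 ± 0.08 (SE, adjusted p = 0.176) with it, and all 6 pairs lay below 0. Vav1 changed by -0.38 ± 0.10 (SE, adjusted p = 0.159) and -0.32 ± 0.09 (SE, adjusted p = 0.186), also with all 6 pairs below 0. For Aif1 the values were -0.60 ± 0.19 (SE) and -0.43 ± 0.18 (SE), and Coro1a had -0.53 ± 0.14 (SE) and -0.29 ± 0.14 (SE). Spi1 changed by -0.27 ± 0.13 (SE) and -0.21 ± 0.13 (SE), Lyz2 by -0.11 ± 0.11 (SE) and -0.12 ± 0.11 (SE), and Ptprc by -0.16 ± 0.10 (SE) and -0.12 ± 0.10 (SE). On the other side of 0, Itgam had 0.29 ± 0.14 (SE) and 0.45 ± 0.14 (SE), and Cybb 0.21 ± 0.14 (SE) and 0.46 ± 0.14 (SE, adjusted p = 0.187). None of these passed in either comparison. All 6 induction pairs lay below 0 in 15 genes and above 0 in 2. The same count was not made over all tested genes, so these numbers only describe the 40. Fibroblast markers had, with induction, a median log2 fold change of -0.23 without and -0.22 with B12 and 0 of 8 called. The macrophage markers had medians of -0.13 and -0.19, also with 0 called.

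The clones started from different levels, with clone 1 the highest in MEF. In MEF, the median ratio over the 40 genes was 1.4 between clones 1 and 2 and 1.58 between clones 1 and 3. Induced cells without B12 still showed ratios of 1.41 (clones 1 and 2) and 1.31 (clones 1 and 3). For MEF + B12 the same ratios were 1.19 and 1.34. Only OSKM + B12 cells had ratios close to 1, at 1.01 and 0.976. The median difference with induction without B12 was -0.26 in clone 1, -0.28 in clone 2 and -0.04 in clone 3, and with B12 it was -0.43, -0.23 and 0.00. The sample titles give clone 1 a later year than clones 2 and 3, so the year and clone 1 cannot be told apart. A test of whether the induction response differed between clones called 1 of the 40 genes, Adgre1 (adjusted p = 0.0295), against 2.15% of all tested genes, and 14 had an unadjusted p under 0.05, where 14.82% of all tested genes did. The mean change of Adgre1 with induction was -0.50 in clone 1, -0.31 in clone 2 and 0.02 in clone 3. Leaving out clone 1 of the OSKM group raised the count to 12, Adgre1 among them. The share of all tested genes in that setting is not given, so the 12 cannot be set beside the 2.15% of the main fit. The same test for the B12 response called 0 of the 40 genes and 0% of all tested genes, and 7 had an unadjusted p under 0.05, where 1.184% of all tested genes (227) did.

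Markers of other blood and vessel cells stayed low or were not called. Neutrophil, mast cell and NK cell markers each summed to 0.189 CPM or less in every library, and S100a9, Mpo, Elane and Ly6g were under 0.1 CPM in each. T cell markers summed to 0.86 to 1.83 CPM, with Cd3d, Cd3e, Cd3g and Cd8a under 0.1 CPM, and the B cell markers Cd79a and Ms4a1 were also under 0.1 CPM. Erythroid markers summed to 0.177 to 0.434 CPM. With B12, 0 genes of these lists were called in the average over states, but few had enough reads to be tested. These were 2 of 8 T cell, 2 of 5 B cell and 1 of 6 erythroid markers, and 0 of the neutrophil, mast cell and NK cell markers. The lists therefore cannot show whether such cells responded to B12. The 8 fibroblast markers had a median log2 fold change of -0.11 with B12 and 0 were called. Endothelial markers had medians of 0.12 with B12 and 1.24 with induction without B12, and 0 of the 3 tested were called. Their sum of 41.9 to 145 CPM was mostly Tek (34.3 to 139 CPM), whose own induction value is the 1.24. In that comparison Cdh5 changed by 1.36 and Kdr by -0.02. Pecam1, Emcn and Tie1 were not tested and stayed at or under 0.279 CPM. Counted without the 4 members that share more than 10% of their 31-base words with another gene (Ms4a6c, Lyz2, Itgam and Lyn), 31 of 36 members were higher in the B12 average.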

How the data were processed

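Per the labels and the study's methods, the authors made stranded poly(A) libraries, sequenced them paired-end on several flow cells, aligned reads with STAR (version 2.5.2 in the submitters' processing notes) to GRCm38, counted them per Ensembl gene with featureCounts and summed the flow cells. The deposited file holds unnormalized counts; none of the rows lacks a gene name. Of 55573 identifiers, 55480 matched GENCODE M21 (GRCm38), used for symbols, exon lengths and shared 31-base words.

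All 12 libraries were fitted together with edgeR 4.0.16 in R 4.3.3: TMM scaling, filterByExpr (19174 genes kept), a quasi-likelihood F test with group and clone as terms, and Benjamini-Hochberg adjustment over all tested genes at 0.05. Clones pair the libraries because the cells of an embryo were split over all 4 groups; deviations from group means correlated at 0.27 to 0.687 between libraries of the same clone (18 pairs) and -0.51 to 0.17 between clones (36 pairs). Clone tests were F tests of clone by induction and clone by B12. The SE of a log2 fold change is its absolute size divided by the square root of F from the same test. Differences within clones used log2 CPM with a prior count of 2. p-values of the group comparisons rest on 3 embryos a group, and the B12 average takes the MEF and OSKM differences of an embryo as separate observations. In the clone tests each clone is an embryo, and its libraries at both B12 levels, or in both states, served as replicates. Those p-values therefore do not measure spread between embryos of a kind.

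The script was tested on simulated data. Alternatives were DESeq2 1.42.0, other scalings and filters, no block, fewer libraries, and each clone left out. Members and gene lists were chosen with earlier results of these data known, so none is independent evidence. Libraries are given gene by gene for Ptprc, Spi1, Lyz2, Cd68, Adgre1, Itgam and Runx1, for the highest and lowest B12 change of each role, and for any member called in an induction, interaction or clone test. The choice of promoters shown was made after their values were seen.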

Additional observations from a re-analysis of the deposited data

Results flagged for a closer look

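Adgre1, which encodes F4/80, was the member whose induction response differed between clones in the edgeR F test (adjusted p = 0.02954 over all tested genes). A count of 1 among 40 members is near the share over all tested genes, of which 2.15% passed. The mean log2 change of Adgre1 with induction was -0.50 in clone 1, -0.31 in clone 2 and 0.02 in clone 3, each over the pairs without and with B12. It passed in all 5 alternatives tried for this test, with adjusted p between 0.000263 and 0.0304.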

How the results depend on the processing

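The median log2 fold changes of the 40 genes stayed within the spread between clones under every alternative tried, and DESeq2, other scalings and other filters left 35 or 36 genes higher in the B12 average. Without the replicate block the counts were 10 in the B12 average, 0 in OSKM and 0 in MEF, and the block changed no induction or interaction count. Leaving out 1 clone gave 1 to 34 genes in the B12 average, 0 to 31 for B12 in OSKM, 0 to 30 for B12 in MEF, 0 to 6 for induction without B12 and 0 to 7 for induction with B12. With the 6 induced libraries alone, 11 passed for B12 in OSKM. For induction without B12, DESeq2 and no filter each called 3. For induction with B12, DESeq2 called 3 and no filter 4. The shares of all tested genes given for the main fit do not carry over to the counts of other settings. For the clone test of induction, no filter called 13 and leaving out the OSKM library of clone 1 called 12, a range of 1 to 13 over the alternatives. Direction turned for Runx1 in the B12 average (0.0173 with library totals, and -0.0512 to 0.0399 with 1 clone left out, above 0 without clone 2 or 3), for Cybb without clone 2 (ranges with 1 clone left out of -0.0073 to 0.0993 in the average, -0.0280 to 0.2935 in OSKM and -0.0950 to 0.0133 in MEF) and for Ptprc with induction in the presence of B12 without clone 1 (-0.2254 to 0.0136), none of which passed. The cause was not tested; leaving out a clone leaves 2 libraries a group. The alternatives of the clone test for B12 were chosen after seeing the data, and each called 0. Fgr had 32 to 70 counts a library and the widest SE of the 40; the part of depth in its value was not tested.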
